A study of Mus musculus with 8 samples.

Results

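The gene Slc15a2, which encodes a peptide transporter, was examined in mouse CD8+ T cells together with 9 further transporter genes. These were its relatives Slc15a3 and Slc15a4 and the amino acid transporter genes Slc7a5, Slc3a2, Slc7a6, Slc1a5, Slc38a1, Slc38a2 and Slc7a1. Every probe that the platform annotation assigns to one of these symbols was taken, which gave 15 of the 25697 probes, and 10 of the 16593 named genes. Slc15a2 was selected on its measured difference between the groups in these same arrays, so that difference is given as a description with no test. The other 9 genes were picked for their family and function.

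The study placed CD8+ T cells of 4 ASC knockout samples beside those of 4 wild type samples, all on the C57BL/6 background, with 1 Illumina MouseRef-8 bead array per sample. ASC is the adaptor protein encoded by Pycard, best known for building inflammasomes, and the title of the study links it to the transcription factor T-bet and the differentiation of cytotoxic T cells. The labels give no age, sex, stimulation or time point, do not say how the knockout allele was made, and do not say whether replicates were separate animals. The p-values are therefore relative to the scatter among these samples, part of which may be technical.

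Proteins of the Slc15 family carry short peptides together with protons. Slc15a2 does so at the plasma membrane and is best known from kidney and brain, whereas Slc15a3 and Slc15a4 sit in the membranes of endosomes and lysosomes and also carry histidine and bacterial peptide fragments. T cells that are activated take up far more amino acids than resting cells: Slc7a5, bound to the heavy chain Slc3a2, brings in leucine and other large neutral amino acids, Slc1a5 and the Slc38 proteins bring in glutamine and other small neutral ones, and Slc7a1 brings in arginine and lysine. These transporters feed protein synthesis and the kinase complex mTORC1, which reads amino acid supply.

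On the arrays, Pycard was detected on 0 of 4 knockout and 4 of 4 wild type arrays, with signals of 118.6 to 123.9 in the knockout and 480.5 to 523.8 in wild type. Detection here means a detection p-value under 0.05 for that probe on that array. The median signal of all probes lay between 127.9 and 133.8 on every array. Knockout arrays detected 11529 to 11665 probes and wild type arrays 10995 to 11442. The lowest signal of a detected probe was 131.8 to 135.6 on knockout arrays and 136.2 to 139.8 on wild type arrays. For dim probes, a contrast in detection counts between the groups therefore also carries this lower limit of the knockout arrays. Of 8 CD8 T cell markers, 7 were detected on all 8 arrays, among them Cd3e and Cd8b1, but the Cd8a probe was detected on 0 of 8.

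Slc15a2 was above the background in every knockout sample and close to it in wild type. Its single probe (ILMN_2988480) gave signals of 210.9, 199.1, 207.8 and 185.9 in knockout replicates 1 to 4. In wild type replicates 1 to 4 the signals were 134.3, 129.4, 124.5 and 143.1. The lowest knockout array therefore lay above the highest wild type array. The probe was detected on 4 of 4 knockout arrays, each with a detection p listed as 0. It was detected on 1 of 4 wild type arrays, replicate 4, at a detection p of 0.0201, and wild type replicate 1 came nearest to detection among the others, at 0.103.

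**Figure D1:**
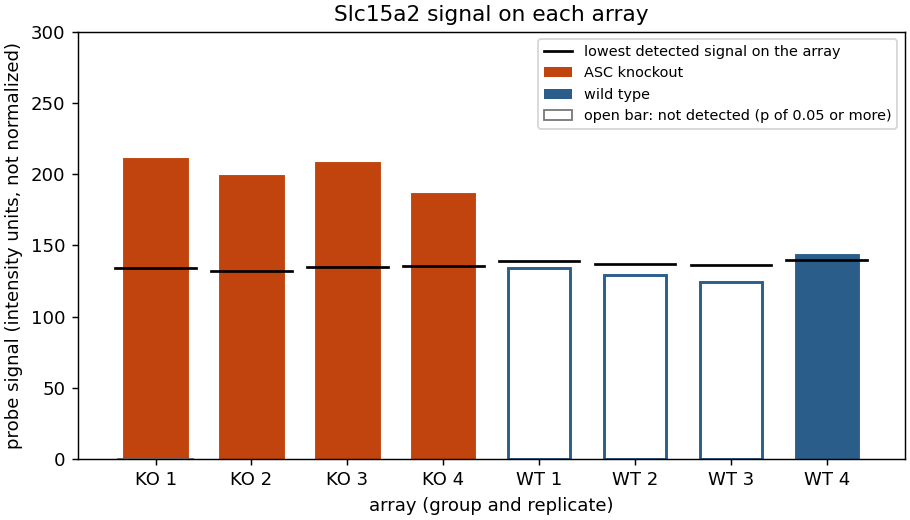
Signal of the Slc15a2 probe on each array (bars, intensity units, not normalized), with the 4 ASC knockout arrays at left and the 4 wild type arrays at right. Open bars mark arrays where the probe was not detected, and black lines give the lowest signal of any detected probe on that array. The knockout bars stand at 185.9 to 210.9 and the wild type bars at 124.5 to 143.1.

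After background correction and quantile normalization, the log2 values were 6.69, 6.72, 6.71 and 6.34 in knockout replicates 1 to 4, and 4.75, 4.64, 4.54 and 5.14 in wild type replicates 1 to 4. Knockout replicate 4 was the lowest of its group and wild type replicate 4 the highest of its own, and the gap between these 2 arrays was still wider than the range within either group. The means were 6.62 ± 0.183 in the knockout and 4.76 ± 0.263 in wild type (SD, n = 4 each). The difference, knockout minus wild type, was 1.85 ± 0.141 in log2 units (SE from limma, n = 4 per group).

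The size of that difference differed between treatments of the background. With no background correction it was 0.64, and with a normexp correction and an offset of 50 it was 0.98. The values of the authors' deposited table gave 0.64. Raising the undetected wild type arrays to the lowest detected value of their array gave 1.62. The knockout was the higher group in each of these.

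**Figure D2:**
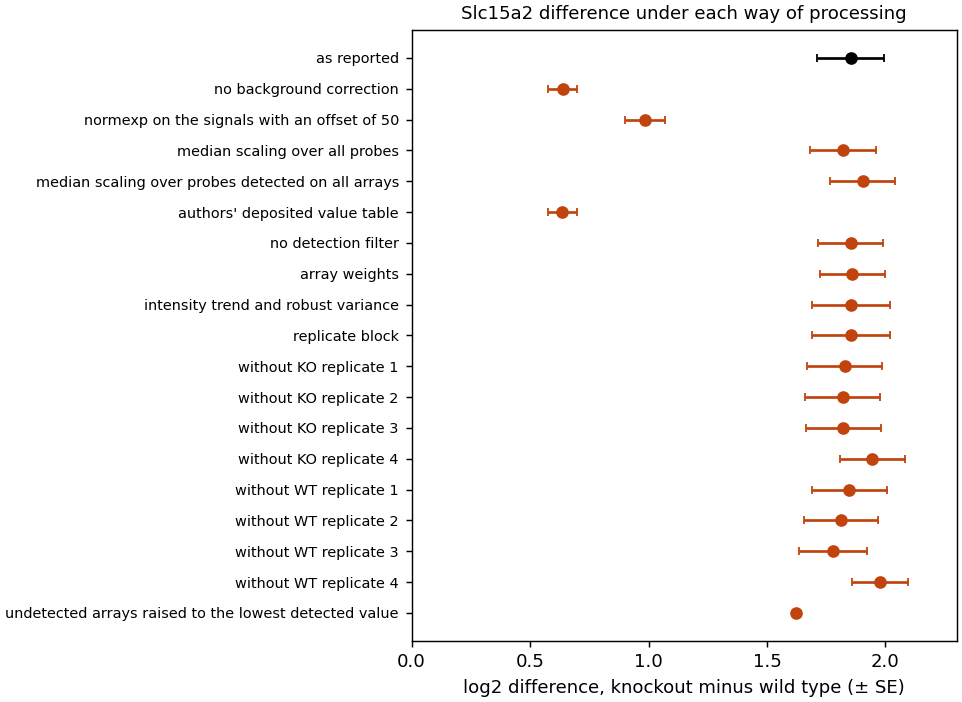
Slc15a2 log2 difference between ASC knockout and wild type (horizontal axis, positive is higher in the knockout) under each way of processing the arrays (rows). Points are the estimates and bars the SE of limma, which the last row does not have. The estimate is 1.85 as reported, 0.64 without background correction and 1.78 to 1.98 when 1 array is left out.

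In the RefSeq promoter table, 6 of the 10 genes had a sequence that covers 250 bases before and 50 after a gene start. The Slc15a2 promoter is shown because it belongs to the gene whose groups lay apart, and the Slc15a4 promoter to set a member of the same family beside it. The Slc15a2 promoter lies at chr16:36784913-36785212 and the Slc15a4 promoter at chr5:127617343-127617642, both on the minus strand of GRCm38.p6, and both are written 5′ to 3′ along the gene.
Slc15a2: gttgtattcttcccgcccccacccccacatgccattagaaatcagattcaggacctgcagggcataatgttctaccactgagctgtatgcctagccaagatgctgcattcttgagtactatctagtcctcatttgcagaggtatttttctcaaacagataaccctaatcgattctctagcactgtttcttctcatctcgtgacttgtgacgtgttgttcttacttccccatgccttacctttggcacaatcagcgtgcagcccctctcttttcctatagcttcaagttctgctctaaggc
Slc15a4: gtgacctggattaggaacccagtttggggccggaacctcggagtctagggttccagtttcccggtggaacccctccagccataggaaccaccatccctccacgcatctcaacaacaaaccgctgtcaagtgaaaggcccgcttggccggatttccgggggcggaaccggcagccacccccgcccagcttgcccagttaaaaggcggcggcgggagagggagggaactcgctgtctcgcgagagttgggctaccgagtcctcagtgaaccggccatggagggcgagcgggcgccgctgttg

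The Slc15a2 promoter had a GC content of 46.3%, and 26.2% of all 32851 promoters of this length had a lower one. The Slc15a4 promoter had a GC content of 64%, above 79.7% of promoters. On both strands, 4 motifs were searched, none of which is contained in another: the E-box CACGTG bound by Myc, the amino acid response core TGATGNAA, the T-box half-site AGGTGTGA and the AP-1 site TGANTCA. They occur in 7.15%, 3.97%, 1.28% and 7.81% of all promoters, in that order. Neither promoter printed here holds any of them, so no letter is in capitals, which says only that these letters are absent from these windows. Among all member promoters there was 1 match, an AP-1 site in 1 of the Slc7a1 promoters.

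The lysosomal relatives showed no such separation. The Slc15a3 probe was detected on all 8 arrays, with log2 values of 7.36, 7.36, 7.07 and 7.06 in knockout replicates 1 to 4 and 7.54, 7.28, 7.16 and 7.13 in wild type replicates 1 to 4. The groups overlapped, with the single highest value in wild type. The difference was -0.07 ± 0.118 (SE, n = 4 per group, limma adjusted p = 0.865), and its 95% interval ran from 0.796-fold to 1.15-fold of wild type.

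Slc15a4, whose protein is known for supporting endosomal Toll-like receptor signalling through the transcription factor IRF5, had 2 probes. The brighter, ILMN_2790312, had log2 values of 7.19, 7.32, 7.61 and 7.90 in knockout replicates 1 to 4 and 7.36, 7.42, 7.30 and 7.27 in wild type replicates 1 to 4. The knockout arrays lay on both sides of the narrow wild type range. The difference was 0.17 ± 0.141 (limma adjusted p = 0.672), with an interval from 0.903-fold to 1.40-fold. The dimmer probe, ILMN_2687204, was detected on 4 of 4 knockout and 3 of 4 wild type arrays and differed by 0.04 ± 0.19 (limma adjusted p = 0.957).

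**Figure D3:**
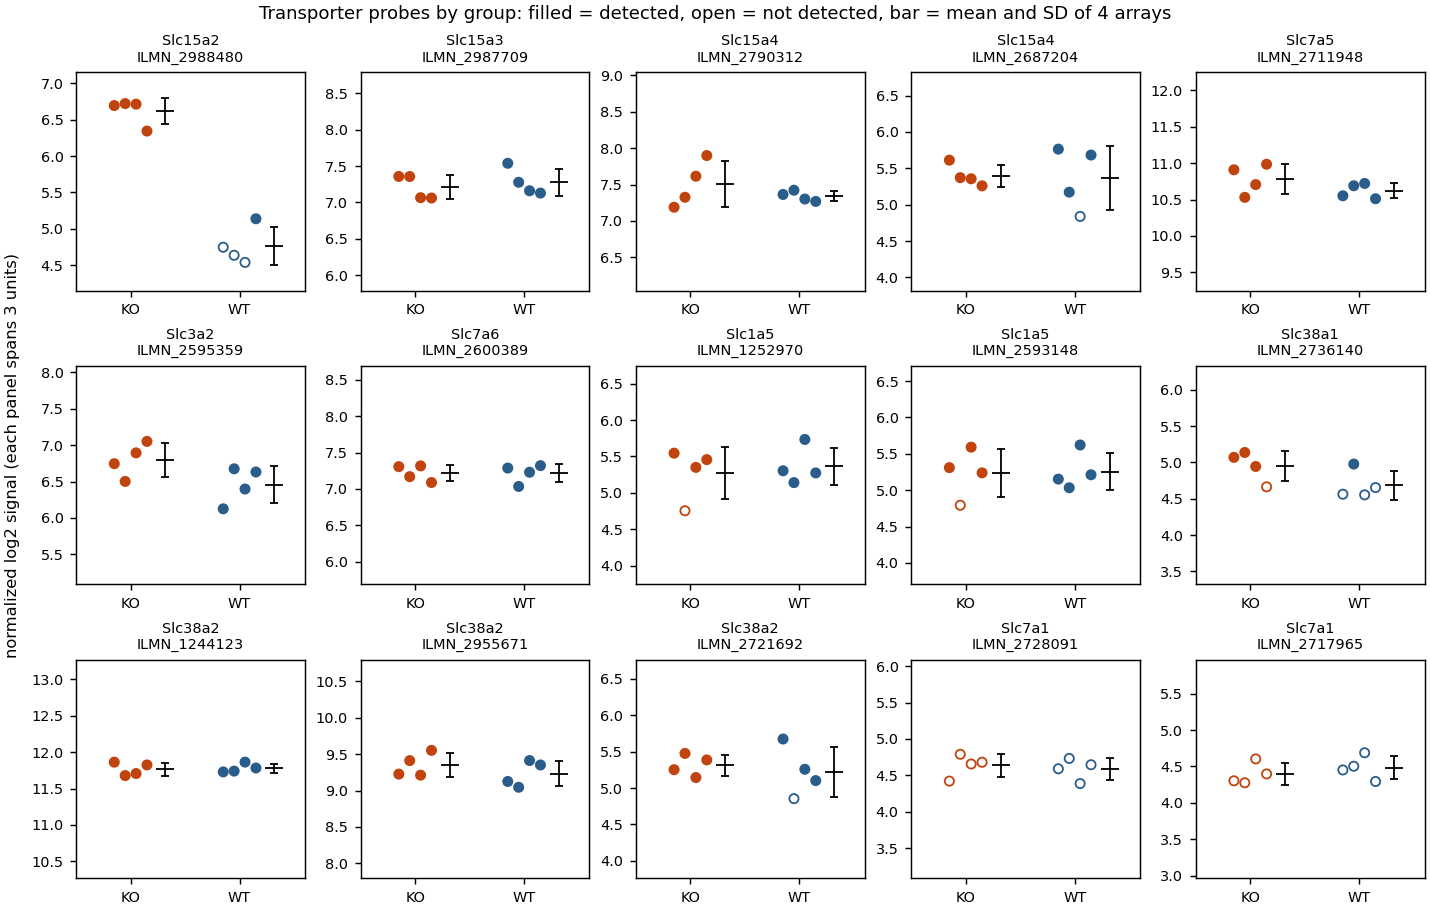
Normalized log2 signal of each of the 15 transporter probes on each array, with ASC knockout (KO) at left and wild type (WT) at right in every panel, replicates 1 to 4 from left to right. Filled points were detected and open points were not, bars give the mean and SD of 4 arrays, and each panel spans the same range of log2 units. Only in the Slc15a2 panel do the groups not overlap.

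Of the 9 genes apart from Slc15a2, 8 had a tested probe, meaning one detected on at least 4 of the 8 arrays, with 12 tested probes among them. limma called 0 of these 12 probes at an adjusted p under 0.05, where it called 0.843% of all 11270 tested probes. At an unadjusted limma p under 0.05 there was 1, against 13% of all tested probes. The groups overlapped at all 12, whereas they did not overlap at 8.12% of all tested probes. The median difference of the 12 was 0.06, with 8 above 0 and 4 below (7 and 5 after median scaling over all probes, 9 and 3 after median scaling over detected probes), beside a median of -0.0068 over all tested probes. Slc38a1 passed the detection filter with 3 knockout arrays and 1 wild type array and so at the minimum.

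The 2 chains of the leucine transporter both had higher means in the knockout, without passing the test. Slc7a5, the transporting chain, was bright, with signals of 1965.9, 1440.8, 1719.2 and 2038.7 in knockout replicates 1 to 4 and 1781.4, 1870.5, 1725.4 and 1601.1 in wild type replicates 1 to 4. The knockout arrays included both the highest and the lowest signals. On the log2 scale the means were 10.78 ± 0.206 in the knockout and 10.62 ± 0.103 in wild type (SD, n = 4 each). The difference of 0.16 ± 0.111 had a limma adjusted p of 0.586 and an interval from 0.944-fold to 1.33-fold.

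Slc3a2, the heavy chain known as CD98 that carries Slc7a5 and Slc7a6 to the cell surface, had the largest difference of the 12 probes. Its log2 values were 6.75, 6.50, 6.89 and 7.05 in knockout replicates 1 to 4 and 6.13, 6.68, 6.40 and 6.63 in wild type replicates 1 to 4. Knockout replicate 2 lay inside the wild type range and the other knockout arrays above it. The difference was 0.34 ± 0.149 (SE, n = 4 per group), which passed at the unadjusted limma p of 0.0444 but not after adjustment (limma adjusted p = 0.366), and its interval ran from 1.01-fold to 1.59-fold. Knockout replicate 4 was the highest and knockout replicate 2 the lowest knockout array for both Slc7a5 and Slc3a2. Leaving out 1 array moved the Slc3a2 difference between 0.23 and 0.44.

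Slc7a6, another partner of Slc3a2, which exchanges basic for neutral amino acids, had nearly equal group means. Its log2 values were 7.31, 7.17, 7.32 and 7.09 in knockout replicates 1 to 4 and 7.29, 7.03, 7.23 and 7.32 in wild type replicates 1 to 4. The difference was 0.0022 ± 0.0938 (limma adjusted p = 0.993), with an interval from 0.867-fold to 1.16-fold, and median scaling over all probes turned its sign (-0.0729).

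**Figure D4:**
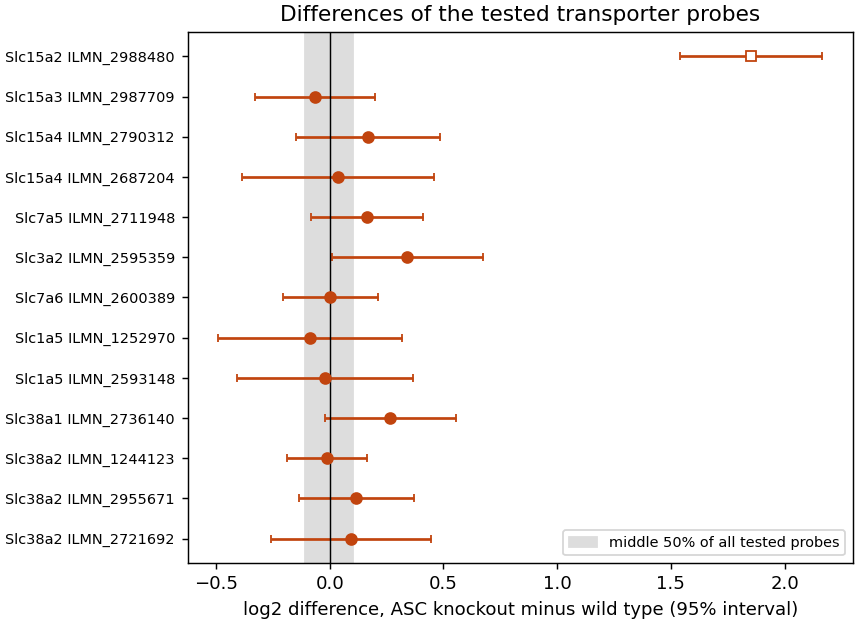
Log2 difference between ASC knockout and wild type (horizontal axis, positive is higher in the knockout) of the 13 tested transporter probes, with 95% intervals of limma. The open square is Slc15a2, which was picked for this difference, at 1.85, and the grey band holds the middle 50% of all tested probes. The other 12 estimates lie between -0.09 and 0.34.

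The glutamine and neutral amino acid transporters ranged from bright to barely detected. Slc38a2, a sodium-coupled transporter known to rise when amino acids are scarce, had 3 probes with very different signals. The brightest, ILMN_1244123, gave signals of 3738.8, 3087.4, 3323.1 and 3579.1 in knockout replicates 1 to 4 and 3914.7, 3855.9, 3690 and 3734.3 in wild type replicates 1 to 4. The raw signals thus leaned lower in the knockout, but after normalization the difference was -0.01 ± 0.0793 (limma adjusted p = 0.970). Its interval, from 0.878-fold to 1.12-fold, was the narrowest among the 13 tested probes. The probes ILMN_2955671 and ILMN_2721692 differed by 0.12 ± 0.114 and 0.09 ± 0.159 (limma adjusted p = 0.725 and 0.857).

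Slc1a5, a sodium-dependent exchanger of glutamine and other neutral amino acids, was dim at both of its probes. Each was detected on 3 of 4 knockout and 4 of 4 wild type arrays. At ILMN_1252970 the log2 values were 5.54, 4.75, 5.35 and 5.46 in knockout replicates 1 to 4 and 5.30, 5.14, 5.73 and 5.27 in wild type replicates 1 to 4. Knockout replicate 2 was the lowest and wild type replicate 3 the highest array at both probes. The differences were -0.09 ± 0.182 and -0.02 ± 0.174 (limma adjusted p = 0.883 and 0.973). The intervals, from 0.711-fold to 1.25-fold and from 0.753-fold to 1.29-fold, leave room for a change of moderate size. Slc1a5 lies on chromosome 7, as Pycard does, but outside the 20 Mb on either side of it, and the other members lie on other chromosomes.

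Slc38a1, a sodium-coupled carrier of glutamine and alanine, was close to the detection limit, which was lower on the knockout arrays. It was detected on 3 of 4 knockout arrays, where its log2 values were 5.07, 5.14 and 4.94, while knockout replicate 4 was at 4.66. In wild type it was detected on replicate 2 alone, at 4.98, and the other wild type arrays lay between 4.55 and 4.65. The difference was 0.27 ± 0.13 (limma adjusted p = 0.425), with an interval from 0.985-fold to 1.47-fold. Slc7a1, the arginine and lysine transporter, was detected on 0 of 8 arrays at both of its probes, with signals of 110.1 to 130.2 in the knockout and 114.5 to 132.2 in wild type. These probes were not well above background and give no difference for this gene.

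The genes around these transporters were read from 9 lists with 153 genes, of which 96 had a tested probe. Each gene was taken at its brightest tested probe. limma called 0 of the 96 at an adjusted p under 0.05, and 15 had an unadjusted p under 0.05, or 15.6%, beside 13% of all tested probes. Differences were above 0 for 48 and below 0 for 48, against 34 and 62 after median scaling over all probes, which moved the median of all tested probes to -0.0827. The 96, the 15 and the 48 above 0 include Tlr7, which passed the detection filter through knockout arrays alone.

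Other amino acid transporters of the plasma membrane were mostly not measurable. Of 21 listed, 19 had a probe and 3 were tested, with a median of -0.04 that turned to 0.05 after median scaling over detected probes. The taurine transporter gene Slc6a6 was at 0.18 ± 0.113 (limma adjusted p = 0.566), the aromatic amino acid transporter gene Slc16a10 at -0.04 ± 0.181 and the cationic transporter gene Slc7a3 at -0.12 ± 0.116. The cystine transporter gene Slc7a11 did not reach the detection filter. All 5 tested genes of lysosomal amino acid export had estimates above 0, with a median of 0.13 and no call. They ran from Slc36a1 at 0.04 ± 0.191 to the cystine exporter Ctns at 0.22 ± 0.0804 (limma adjusted p = 0.276).

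Among the other Slc15 genes and the sensors of peptides that the family transports, 4 of 10 were tested and none was called. The other family members, Slc15a1 and Slc15a5, were not tested, with 0 of 4 knockout and 0 of 4 wild type arrays detecting either. Irf5, the transcription factor downstream of Slc15a4, was at 0.44 ± 0.15 (limma adjusted p = 0.238), and Unc93b1, which escorts Toll-like receptors to endosomes, at -0.02 ± 0.114. Nod1, a cytosolic sensor of bacterial peptidoglycan, was at 0.11 ± 0.132. Detection reached down to lower signals on the knockout arrays. The endosomal receptor gene Tlr7 was detected on 4 of 4 knockout arrays (mean signal 139.1) and 0 of 4 wild type arrays (mean signal 129.4). It passed the detection filter through the knockout arrays alone, so its knockout level, at least 1.09-fold that of wild type, is a description and supports nothing about the list.

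**Figure D5:**
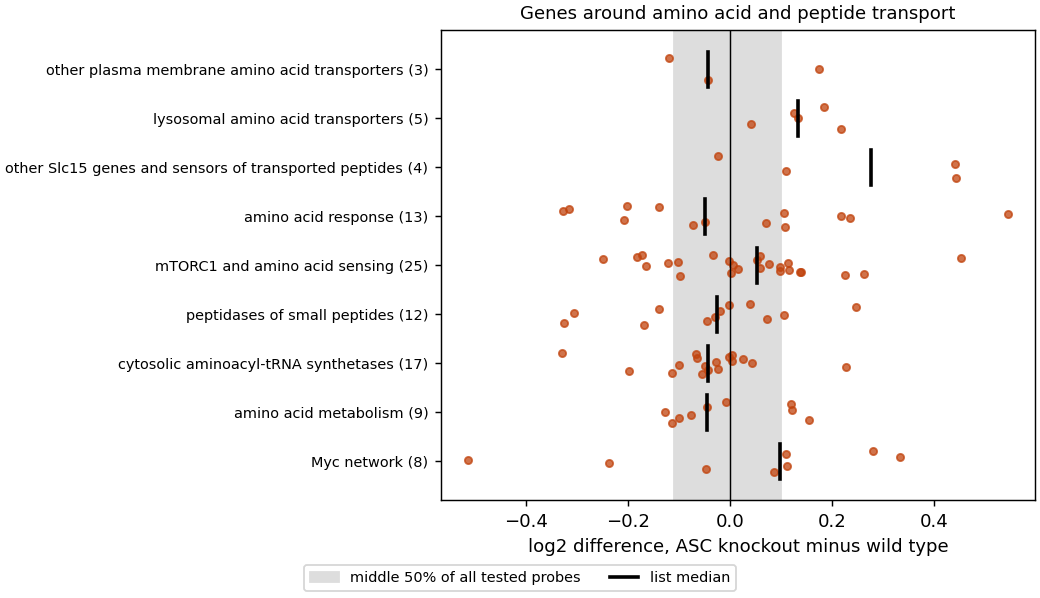
Log2 difference between ASC knockout and wild type (horizontal axis, positive is higher in the knockout) of each tested gene in the 9 lists around transport, 1 row per list with the number of tested genes in brackets. Dots are genes at their brightest tested probe, black bars are list medians and the grey band holds the middle 50% of all tested probes. None of the 96 dots passed limma's adjusted p, and 1 of them, Tlr7, was detected in the knockout alone.

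The amino acid response, the program that the factor ATF4 switches on when amino acids run short, split both ways. Of 13 tested genes, 6 were above 0 and 7 below, with a median of -0.05. Its highest member was Ddit4, an inhibitor of mTORC1, at 0.54 ± 0.137 (limma adjusted p = 0.117), and its lowest was the mitochondrial folate enzyme gene Mthfd2 at -0.33 ± 0.111 (limma adjusted p = 0.240). mTORC1 and its amino acid sensors had 25 tested genes with a median of 0.05, which was -0.045 after median scaling over all probes. They ran from Seh1l, a subunit of the GATOR complex, at -0.25 ± 0.109 (limma adjusted p = 0.371) to Sesn1, a sestrin that restrains mTORC1, at 0.45 ± 0.121 (limma adjusted p = 0.131).

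Peptidases that split small peptides had 12 tested genes and a median of -0.02, from the dipeptidase gene Cndp2 at -0.33 ± 0.14 to the lysosomal peptidase gene Tpp1 at 0.25 ± 0.111 (limma adjusted p = 0.356 and 0.381). The 17 tested aminoacyl-tRNA synthetases, which load amino acids onto tRNA, had a median of -0.04. They ran from the tryptophan enzyme gene Wars at -0.33 ± 0.0937 (limma adjusted p = 0.157) to the histidine enzyme gene Hars at 0.23 ± 0.105 (limma adjusted p = 0.393). Amino acid metabolism had 9 tested genes between Glul, glutamine synthetase, at -0.13 ± 0.202 and Bcat2, a branched-chain aminotransferase, at 0.15 ± 0.0854. In the Myc network, whose founder drives amino acid transporter genes in activated T cells, 8 genes ran from Mxd3 at -0.51 ± 0.175 to Mxd4 at 0.33 ± 0.124 (limma adjusted p = 0.240 and 0.278).

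Markers of other cells were read beside Slc15a2, since in a bulk sample more cells of a type and more RNA per cell cannot be told apart. Of 10 CD4 and regulatory T cell markers, 8 were tested and 6 were above 0, and limma called 1, Foxp3, the master regulator of regulatory T cells, at 1.09 ± 0.138 (limma adjusted p = 0.00576). Its dimmer probe differed by 1.01 ± 0.241 and did not pass (limma adjusted p = 0.103). Called higher in the knockout were 0.435% of all tested probes. The 2 tested markers below 0 were Ikzf2 at -0.22 ± 0.164 and Zbtb7b at -0.0045 ± 0.111 (limma adjusted p = 0.621 and 0.991). The summed level of the 8 markers was 7415 to 8839 normalized units in the knockout and 5376 to 5871 in wild type, with no overlap. Ctla4 and Tnfrsf4, each with a knockout mean of 11.4 log2 units, weighed far more in that sum than Foxp3 at 6.94. The defining markers Cd4 and Cd40lg were detected on 1 and 0 of 4 knockout arrays and on 0 of 4 wild type arrays. Knockout replicate 4 had the highest summed level of these markers, 8839, and 1 array carries no conclusion about Slc15a2. Whether the transcripts of these markers came from other cells or from the CD8 T cells themselves was not tested, so their count and sum identify no cell type. The part of such cells in the Slc15a2 difference was not tested.

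Of 13 myeloid and dendritic cell markers, 7 were tested and none was called, with summed levels of 1195 to 2404 in the knockout and 1270 to 1424 in wild type. They ran from Lyz2, a lysozyme gene, at -0.21 ± 0.19 to S100a9, a calcium-binding protein gene of neutrophils, at 1.08 ± 0.329 (limma adjusted p = 0.695 and 0.187), while Itgam was detected on 0 of 8 arrays. Of 8 B cell markers, 2 were tested and none was called, with sums of 129.2 to 239.7 in the knockout and 117.3 to 176.2 in wild type. Their measured members lay on opposite sides of 0, Cd79b at 0.41 ± 0.231 and Cd22 at -0.26 ± 0.127 (limma adjusted p = 0.506 and 0.424), and Cd79a and Ms4a1 were detected on 0 of 8. Of 7 NK and erythroid markers, 3 were tested and none was called, with sums of 3999 to 5486 in the knockout and 3546 to 4045 in wild type. All 3 were above 0, with the alpha globin gene Hba-a1 at 0.97 ± 0.3 and the NK receptor genes Klrd1 at 0.26 ± 0.107 and Klrb1c at 0.04 ± 0.289 (limma adjusted p = 0.196, 0.335 and 0.970). Of these, Hba-a1 and Klrd1 had an unadjusted limma p under 0.05, as had 13% of all tested probes. The same held for 6 of the 8 tested CD4 and regulatory T cell markers and 2 of the 7 myeloid and dendritic cell markers. It held for 0 of the 2 B cell markers and 1 of the 7 CD8 T cell markers. Ncr1 and Alas2 were detected on 0 of 8. The CD8 T cell markers summed to 92200 to 94790 in the knockout and 89160 to 94540 in wild type, and ran from Cd8b1 at -0.05 ± 0.0798 to Thy1 at 0.17 ± 0.0727 (limma adjusted p = 0.846 and 0.338). The part of these cells in the transporter values was not tested.

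The genes most like Slc15a2 in their log2 values over the 8 arrays were Clip1, Wwp2, Ly96, Cd99l2 and Ddx5, with Pearson correlations of 0.98, 0.979, 0.972, 0.972 and 0.971. These are descriptions over arrays that fall into 2 groups, so the correlation follows the group difference. Each was detected on all 8 arrays and was higher in the knockout mean, by 0.27 for Clip1, 0.55 for Wwp2 and Ly96, 0.49 for Cd99l2 and 0.36 for Ddx5. Knockout replicate 4 was the lowest knockout array for Clip1, Wwp2, Ly96 and Ddx5, as it was for Slc15a2. Picking genes by this correlation favours such a likeness, so it is no separate result. Among the transporters, the correlation with Slc15a2 was 0.643 for Slc38a1, 0.596 for Slc3a2, 0.371 for Slc7a5 and -0.187 for Slc15a3.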

How the data were processed

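Transcripts of CD8+ T cells were measured on 8 single-colour Illumina bead arrays, 4 of ASC knockout and 4 of wild type samples. The submitters' processing notes name GenomeStudio and no version. The authors deposited each probe's intensity without normalization, and a detection p-value for every probe and array, both per the file headers. The authors' deposited value table holds log2 values; it equals median-centred, quantile-normalized log2 signals without background correction within 0.00211, a match made here, as the headers do not describe it.

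Intensities were corrected with limma's nec (offset 16, background inferred from the detection p-values), quantile-normalized and log2-transformed. A detection p under 0.05 on at least 4 arrays was required, which left 11270 of 25697 probes to test with limma's lmFit and eBayes and Benjamini-Hochberg adjustment over all of them at a threshold of 0.05. A difference is knockout minus wild type, with the moderated SE and 95% interval. Where a group detected a probe on no array, its fold is a bound against the lowest detected value of each array. For 23962 probes the Entrez identifier was found in the GRCm38.p6 gene table, which set the symbol, and promoter sequences are RefSeq's for that build.

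The members and lists were chosen with earlier results of these data known. Named were every member, Pycard, the highest and lowest gene of each list or its called genes, for marker lists also defining markers, and the 5 genes most correlated with Slc15a2. Klrd1, Ikzf2, Zbtb7b, Ctla4, Tnfrsf4, Slc16a10, Slc7a11, Slc15a1, Slc15a5, Nod1, Myc and Tlr7 were named after their values were seen. Slides and array positions were not given, and batches were therefore not tested. The number of arrays limits precision: the median SE of a difference was 0.109. Alternatives changed the background model, scaling, filter, source of values, array weights, variance model, replicate block and arrays used. R 4.3.3 and limma 3.58.1 were used.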

Additional observations from a re-analysis of the deposited data

Results flagged for a closer look

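Knockout replicate 4 lay apart from its group for Slc15a2 (probe ILMN_2988480), with a normalized log2 value of 6.34 against 6.69 to 6.72 on the other knockout arrays. Its gap to the nearest of these was 0.928 of the group's range, above Dixon's 95% critical value for 4 samples. Among the 30 groups of 4 values looked at, from 15 transporter probes in 2 groups, this was the only 1, where chance gives about 1 in 20, or 1.5. Without that array the Slc15a2 difference was 1.94.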

How the results depend on the processing

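Over 18 alternative fits, 0 of 211 differences of the transporter probes apart from Slc15a2 passed limma's adjusted p, and 0 of these genes were called. Slc15a2 was picked for its difference in these same arrays, so its sign under the alternatives is a description. It was higher in the knockout under every alternative that kept its probe, which requiring detection on all 8 arrays did not. Its log2 difference was 1.85 as reported, 0.64 without background correction, 0.98 with normexp at an offset of 50 and 0.64 with the authors' table. It was 1.62 with undetected arrays raised to the lowest detected value, an alternative chosen after seeing the data, and 1.78 to 1.98 with 1 array left out. Estimates near 0 changed sign at Slc7a6 with median scaling over all probes (-0.0729) and at Slc1a5 probe ILMN_2593148 with median scaling over detected probes (0.048) or array weights (0.0522). With 1 array left out, sign changes occurred for Slc15a3 (-0.115 to 0.0216), Slc15a4 probe ILMN_2687204 (-0.140 to 0.169), Slc7a6 (-0.0591 to 0.0462), Slc1a5 probes ILMN_1252970 (-0.176 to 0.0878) and ILMN_2593148 (-0.141 to 0.125), and Slc38a2 probes ILMN_1244123 (-0.0422 to 0.0192) and ILMN_2721692 (-0.0299 to 0.243). Of all probes, 49 were called higher and 46 lower in the knockout; the counts were 121 and 103 without background correction and with the authors' table, 108 and 89 with normexp, and 126 and 107 with an intensity trend and robust variance. They were 31 and 31 with no detection filter, 33 and 67 with median scaling over all probes, and 14 to 38 higher and 17 to 40 lower with 1 array left out. The lists around transport had 0 calls as reported. Without background correction and with the authors' table they had 1 higher (Ddit4) and 1 lower (Wars). With an intensity trend there were 2 higher (Ddit4 and Sesn1) and 1 lower (Wars). Normexp (Ddit4) and median scaling over detected probes (Tlr7, which passed the filter through knockout arrays alone) gave 1 higher each, and leaving out 1 array gave 0. The cause was not tested. The labels do not say whether the replicate numbers pair the samples. Deviations from the group means correlated at 0.0139, 0.107, 0.132 and -0.0999 for same-numbered samples 1 to 4. For differently numbered samples they ran from -0.155 to 0.121, so these values do not settle the pairing. With the replicate block 29 probes were called higher and 22 lower, 0 of them transporter genes apart from Slc15a2, whose difference stayed at 1.85. Of the transporter genes, 9 were detected on at least 4 arrays at p under 0.05. Median scaling over all probes left the tested probes at a median of -0.0827. Signals near background limit Slc1a5, Slc38a1, Slc7a1 and wild type Slc15a2.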
